A study of Homo sapiens with 6 samples.

Results

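The genes described here are the collagens and the enzymes, the chaperone and the processing factors that modify collagen. Members were the genes of the table whose symbol had the form of a collagen chain gene, together with the prolyl hydroxylases, lysyl hydroxylases, lysyl oxidases, SERPINH1, PCOLCE and BMP1. They numbered 51 of 15585 genes, with 37 collagen genes and 14 others. RNA was sequenced from cells labelled U2OS, a human osteosarcoma (bone tumour) line, 48 h after transfection with control siRNA (siCTR, 3 libraries) or siRNA against LSD1 (siLSD1, 3 libraries). LSD1, encoded by KDM1A, is a histone demethylase. Sequencing gave 12855558, 13026699 and 13444230 reads in genes for siCTR replicates 1 to 3, and 13292468, 12513511 and 13561344 for the siLSD1 replicates. Nothing in the labels says that the replicates came from separate cultures, so p-values measure only the spread between these samples, which may be technical. LEPRE1, also named in the rule, was not in the table under that symbol. Its current symbol P3H1 had 1144, 1132 and 1056 reads with siCTR against 1212, 1096 and 1086 with siLSD1, and it was not counted as a member.

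Several markers went against the label. TERT, which is silent in lines such as U2OS that keep telomeres without telomerase, had 71 to 109 reads per library, and CDKN2A, also taken to be at or near 0 in U2OS, had 1841 to 2883. Of 11 osteoblast lineage markers, 8 had a row and 4 of these stayed at 10 reads or fewer in every library, among them the osteoblast transcription factors RUNX2 (0 to 4 reads) and SP7 (0 to 3) and the bone matrix protein gene SPARC (0 to 3). The most abundant gene of that list was ALPL, bone alkaline phosphatase, with 4162 to 5411 reads, and the summed level of the list was 119 to 152 FPKM (reads scaled to gene length and library size, as deposited). Of 7 epithelial markers 6 had a row, KRT5, KRT14 and KRT19 were at or near 0, and the list, led by CLDN4, summed to 7.53 to 9.22 FPKM. The 5 mesenchymal markers, led by VIM, summed to 614 to 757 FPKM. The keratins KRT7, KRT8, KRT17 and KRT18, chosen after their values were seen, summed to 1095 to 1411 FPKM. Because of that choice, their sum cannot be ranked against those of the fixed lists. Among endothelial markers, PECAM1 and TEK were at or near 0 and VWF had 63 to 103 reads with siCTR against 152 to 161 with siLSD1. The cells are therefore called by their label only, and the part of cell identity in the results was not tested. In bulk RNA, fewer cells of a type and less RNA per cell cannot be told apart.

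Collagens are built from triple-helical chains that are hydroxylated in the endoplasmic reticulum by prolyl and lysyl hydroxylases, folded with the help of the chaperone SERPINH1 (HSP47), secreted, trimmed by propeptide proteinases such as BMP1 and cross-linked by lysyl oxidases. Fibrillar collagens give tissue tensile strength, collagen IV forms the network of basement membranes, and collagen VII anchors epithelia to the stroma beneath. Bone is rich in collagen I, a heterotrimer of COL1A1 and COL1A2 chains.

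KDM1A was read first, as the check of the knockdown. Its reads were 6140, 6493 and 6573 with siCTR, and 1110, 1198 and 1246 with siLSD1. Every siLSD1 library lay far below every siCTR library, at 18.5% of the control mean after scaling (log2 fold change −2.44 ± 0.11 SE, edgeR adjusted p = 2.27e-07, quasi-likelihood F-test, Benjamini-Hochberg over all tested genes).

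The libraries differed in how many reads they gave to these genes before any contrast was made. Members took 0.377%, 0.278% and 0.329% of reads in siCTR replicates 1 to 3 and 0.371%, 0.339% and 0.30% in the siLSD1 replicates. Among the siCTR libraries, replicate 2 was the lowest in 22 of the 36 tested members (61.1%), against 37.9% of all tested genes.

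Collagen expression in these cells was led by collagen VII, and COL1A1 of bone collagen was low. COL7A1, the anchoring fibril chain, stood at 136, 89.9 and 103 FPKM in siCTR and at 115, 103 and 70.8 FPKM in siLSD1, which was 40.0% of all collagen FPKM in siCTR and 34.2% in siLSD1. The collagen V chain COL5A1 stood at 42.4 ± 8.84 FPKM in siCTR and 46.2 ± 7.21 in siLSD1 (SD, n = 3 each), and COL12A1, a collagen that decorates fibril surfaces, at 35.7 ± 9.37 and 42.3 ± 2.95. These last levels overlapped between the genes and between the groups. COL1A1, fixed as an osteoblast marker, reached 1.62 ± 0.31 FPKM in siCTR and 1.82 ± 0.37 in siLSD1, and COL1A2 had no row in the table used here. The 5 most abundant collagen genes held 79.6% of all collagen FPKM, 7 collagen genes reached 10 FPKM, and 23 of the 37 stayed under 1 FPKM.

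Some chains that assemble together stood at unlike levels, and others did not. COL6A1 had 16.2 FPKM in siCTR, while COL6A2 had 0 to 5 reads per library and COL6A3 0 to 4, although collagen VI is known as a trimer of the 3 chains. COL5A1 partners with COL5A2, which stood at 0.11 FPKM in siCTR. COL9A3 and COL9A2 stood at 10.1 and 3.68 FPKM in siCTR, and COL9A1 had a single read in 1 library. COL4A5 and COL4A6, whose chains assemble together in some basement membranes, stood at 9.48 and 1.01 FPKM in siCTR. By contrast, COL4A1 and COL4A2 stood at 10 and 17.4 FPKM and COL4A3 and COL4A4 at 0.86 and 1.38 in siCTR. These genes were singled out after their values were seen, apart from COL4A1, COL4A2, COL4A5, COL4A6, COL5A1, COL5A2 and COL9A2.

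A larger share of the enzymes and other factors than of the collagens reached 10 FPKM, 8 of 14 against 7 of 37. The lysyl hydroxylases PLOD3 (49.5 ± 1.18 FPKM in siCTR, 44.8 ± 5.06 in siLSD1) and PLOD1 (39.5 ± 5.21 and 45.5 ± 2.51) led, followed by PCOLCE, which enhances removal of the C-propeptide (39.2 ± 2.10 and 35.0 ± 4.43). SERPINH1 stood at 31.1 ± 2.37 and 32.6 ± 2.89 FPKM, and the prolyl hydroxylase P4HA1 at 26.5 ± 2.32 and 32.2 ± 2.17. The lysyl oxidase LOXL2 stood at 27.2 ± 5.31 and 29.0 ± 2.07. In siCTR every PLOD3 value lay above those of PLOD1 and PCOLCE, which overlapped.

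**Figure D1:**
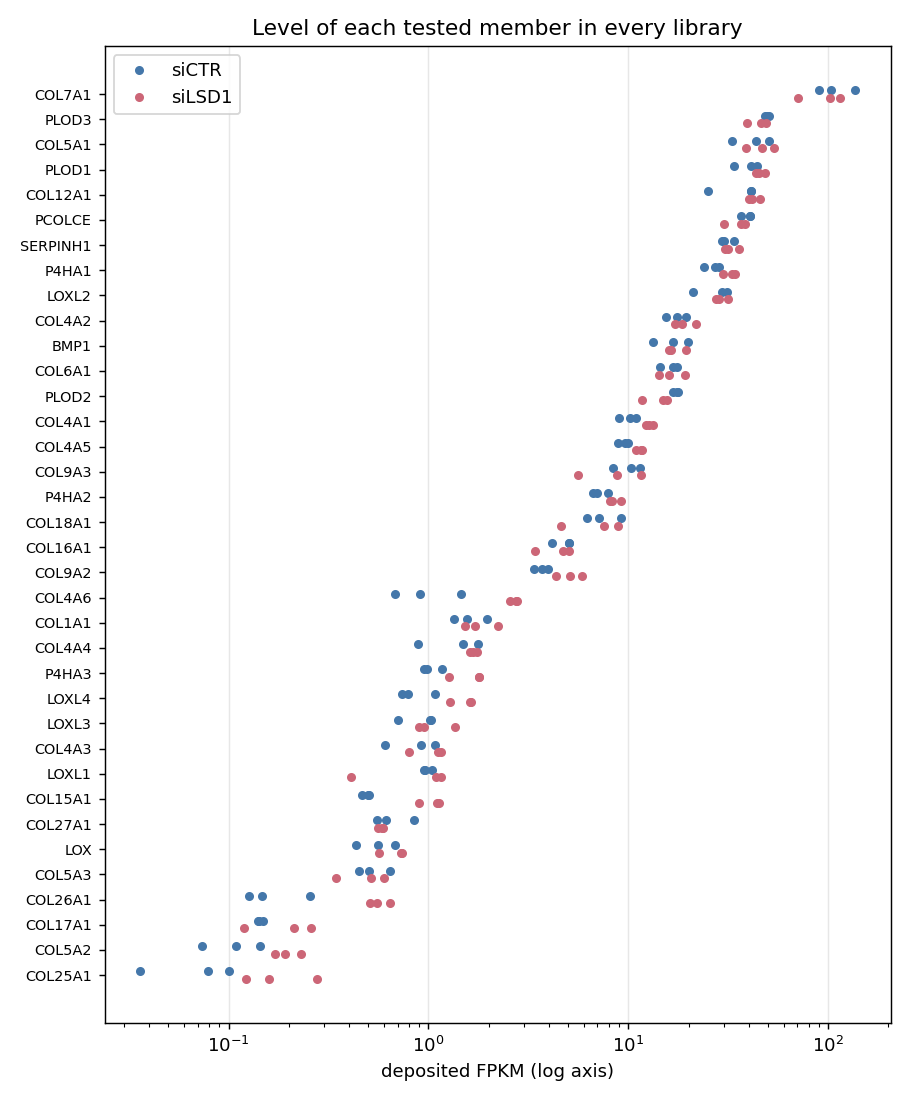
Deposited FPKM of the 36 tested members on a log axis, 1 point per library, siCTR in blue and siLSD1 in red, ordered by the mean of all libraries. COL7A1 lies highest, above PLOD3 and COL5A1, and most members show overlapping groups.

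Silencing LSD1 was followed by higher values in more members than lower values. Of the 51 members, 36 passed the low-count filter and were tested among 11844 genes. At an unadjusted p under 0.05, 11 members were higher in siLSD1 and 1 was lower. Over all tested genes the shares were 7.48% higher (886 genes) and 6.55% lower (776 genes), against 30.6% and 2.78% of the tested members. At an adjusted p under 0.05 from edgeR, 2 members were higher and 0 lower, beside 1.07% and 0.371% of all tested genes. In the DESeq2 and limma-voom fits the adjusted counts were also 2 and 0, beside 210 higher and 113 lower of 11844 genes in DESeq2 and 121 and 38 in limma-voom. In 13 members every siLSD1 library lay above every siCTR library and in 1 below, beside 11.4% and 9.97% of all tested genes. The median log2 fold change of the tested members was 0.21, against −0.01 over all tested genes.

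Part of that picture rests on single libraries and on the filter. COL25A1, COL26A1 and COL5A2 had too few reads in siCTR to pass the filter there and entered through siLSD1, so the filter favours higher values in siLSD1 among them, while COL17A1 passed through siCTR. Over the 32 members that reached the minimum in every library, 8 were higher and 1 lower at an unadjusted p under 0.05, and the median was 0.15, against 7.24% higher, 6.66% lower and a median of −0.02 over the 11291 genes that did so. Without siCTR replicate 2 the median over the tested members was 0.07, with 8 higher and 1 lower, beside 840 and 683 of 12007 genes in that fit. Leaving out siCTR replicate 3 or siLSD1 replicate 3 left 7 members higher, beside 732 of 11996 and 924 of 11984 genes. Members lower numbered 0 without siCTR replicate 1, siCTR replicate 3 or siLSD1 replicate 2, beside 6.58%, 6.05% and 3.79% of all genes in those fits. The members higher at an adjusted p under 0.05 numbered 1 in place of 2 without any 1 of the libraries except siLSD1 replicate 3, while over all genes 99, 65 and 45 were higher without siCTR replicates 1 to 3 and 54, 53 and 89 without the siLSD1 replicates, against 127. After correcting for GC content and length, 6 members were higher and 1 lower at an edgeR adjusted p under 0.05, while the calls over all genes also rose, to 529 higher and 342 lower from 127 and 44. Summed collagen FPKM was 275 ± 49.0 in siCTR and 281 ± 40.1 in siLSD1, so the total differed by less than the spread between libraries.

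**Figure D2:**
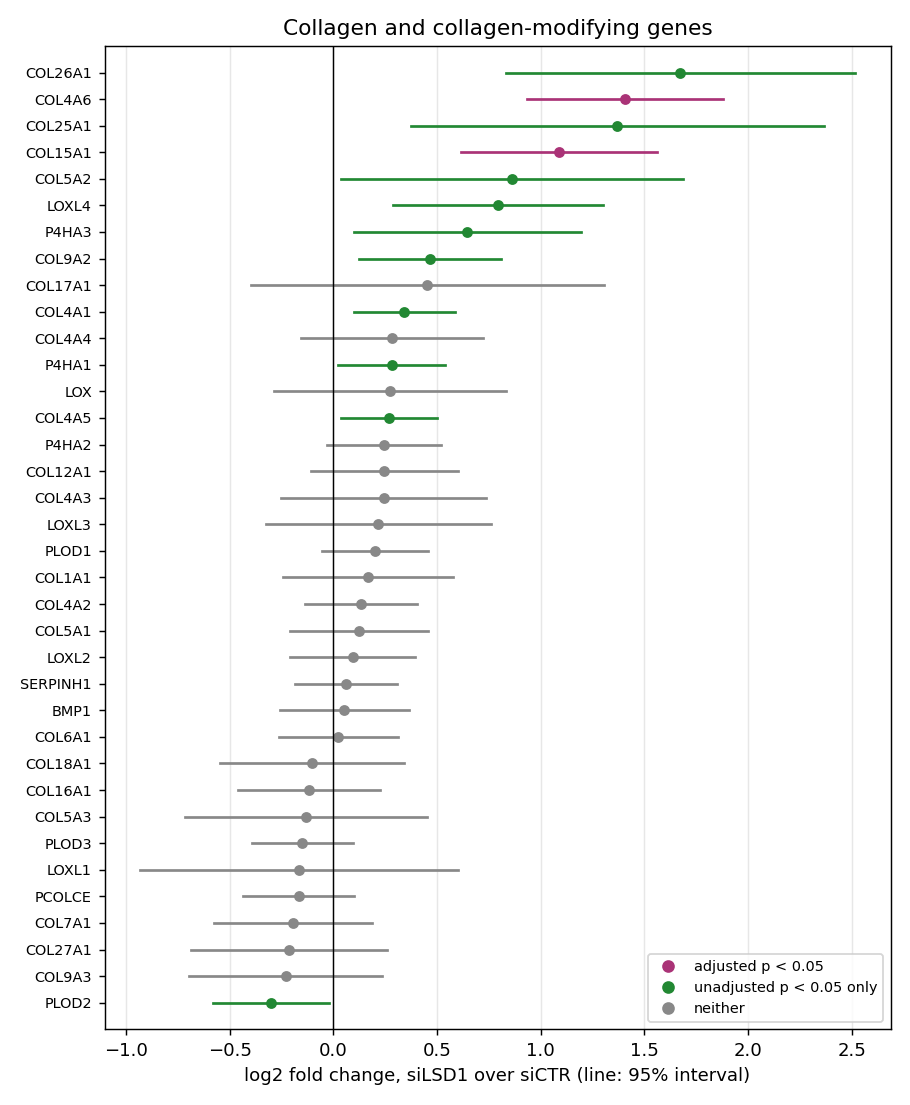
Log2 fold change of siLSD1 over siCTR for the 36 tested members, with 95% intervals from edgeR. COL4A6 and COL15A1 pass the adjusted threshold, PLOD2 is the only member lower at an unadjusted p under 0.05, and most intervals include 0.

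Among network-forming collagens, the basement membrane chain COL4A6 changed most clearly. It had 128, 61 and 84 reads with siCTR against 252, 235 and 238 with siLSD1. The groups did not overlap, and the siLSD1 libraries lay close together while siCTR replicate 1 was the highest control. Scaled to library size (CPM, with TMM factors), the means were 6.95 ± 2.63 and 18.4 ± 0.68 (SD, n = 3 each), a 2.65-fold difference (log2 1.41 ± 0.22 SE, adjusted p = 0.00776 by edgeR, higher in 3 of 3 libraries). Without siCTR replicate 2, where it was lowest, the log2 fold change was 1.20 with an edgeR adjusted p of 0.0339.

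COL4A5, whose chain assembles with that of COL4A6 in some basement membranes, had 999, 902 and 1006 reads with siCTR against 1213, 1135 and 1157 with siLSD1. The groups did not overlap but lay close together (log2 0.27 ± 0.11, edgeR adjusted p = 0.278), and its unadjusted edgeR p was 0.0734 without siCTR replicate 3, 0.056 without siLSD1 replicate 1 and 0.108 without siLSD1 replicate 2. COL4A1, one of the chains of the common collagen IV network, had 1054, 875 and 1032 reads with siCTR against 1322, 1191 and 1249 with siLSD1. All siLSD1 libraries exceeded the controls, by a smaller factor than for COL4A6 (log2 0.34 ± 0.11, edgeR adjusted p = 0.183), and it passed the adjusted threshold after correcting for GC content and length (edgeR adjusted p = 0.0252). Its partner COL4A2, one of the 10 most abundant members, stood at 17.4 ± 2.06 and 19.2 ± 2.42 FPKM with overlapping groups. After the same correction COL4A2 passed only the unadjusted threshold (edgeR unadjusted p = 0.0351, adjusted p = 0.170). COL4A3 and COL4A4, the remaining collagen IV chains, chosen after their values were seen, had log2 fold changes of 0.24 and 0.28 with overlapping groups.

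**Figure D3:**
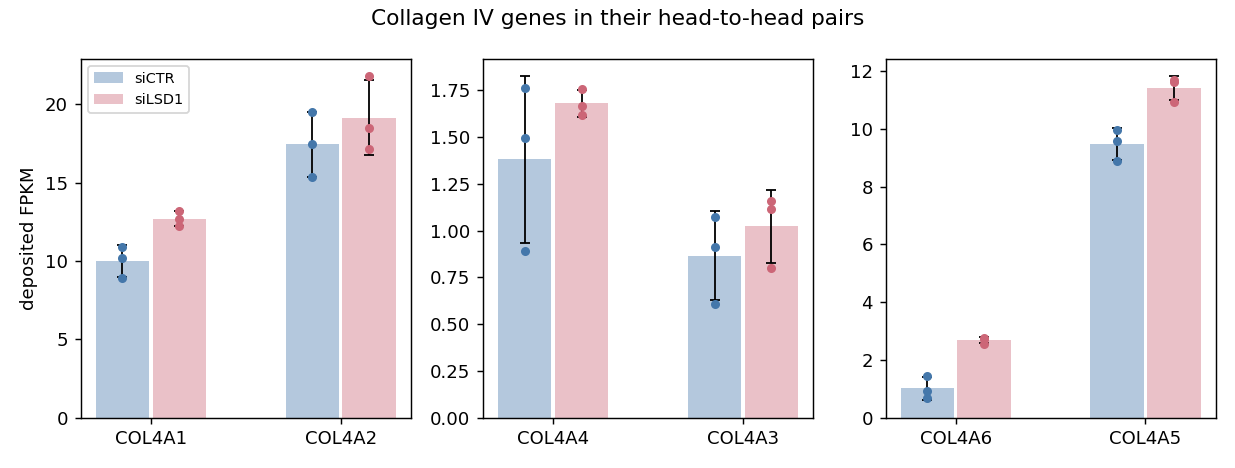
Deposited FPKM of the 6 collagen IV genes by gene pair, with library values as points, bars at the mean and lines at the SD (n = 3 per group). COL4A6 lies below COL4A5 in both groups, and its siLSD1 values all lie above its siCTR values.

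Collagen IV genes lie in head-to-head pairs on opposite strands, a known feature of the family. In the RefSeq promoter table (GRCh38.p14), the start of COL4A1 lay 127 bases from that of COL4A2, the start of COL4A3 lay 419 bases from that of COL4A4, and COL4A6 had 2 starts, 380 and 1416 bases from that of COL4A5. The ratio of COL4A6 to COL4A5 FPKM was 0.146, 0.077 and 0.095 in siCTR and 0.236, 0.235 and 0.234 in siLSD1, so the groups did not overlap. For COL4A1 to COL4A2 it was 0.559, 0.581 and 0.583 in siCTR and 0.605, 0.684 and 0.714 in siLSD1, again without overlap, and for COL4A4 to COL4A3 the groups overlapped (1.93, 1.46 and 1.39 against 2.20, 1.45 and 1.44). Gene counts do not tell the 2 starts of COL4A6 apart. As COL4A6, COL4A5 and COL4A1 were all higher in siLSD1 at an unadjusted p under 0.05, stretches before their starts are shown, 5′ to 3′ on the strand of the named gene and without annotated exons. Capitals mark matches on either strand to the motifs searched, CCAAT and GGGCGG, and TATAAA was searched too.

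COL4A5, chrX:108439588-108439837, plus strand, 250 bases, part of the DNA between it and the nearer COL4A6 start:
COL4A5: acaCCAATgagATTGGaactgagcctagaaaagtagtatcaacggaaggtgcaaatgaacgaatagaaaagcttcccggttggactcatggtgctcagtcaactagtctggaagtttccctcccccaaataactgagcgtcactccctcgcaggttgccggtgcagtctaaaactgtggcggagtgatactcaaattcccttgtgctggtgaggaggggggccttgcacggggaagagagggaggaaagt
COL4A6, farther start, chrX:108438431-108438672, minus strand, 242 bases:
COL4A6: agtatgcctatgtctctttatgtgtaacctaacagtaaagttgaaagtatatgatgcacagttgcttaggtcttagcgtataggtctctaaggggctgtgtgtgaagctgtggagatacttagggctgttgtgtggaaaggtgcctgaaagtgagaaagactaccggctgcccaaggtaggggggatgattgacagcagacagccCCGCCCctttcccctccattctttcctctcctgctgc
COL4A1, chr13:110307158-110307257, minus strand, 100 bases, towards COL4A2:
COL4A1: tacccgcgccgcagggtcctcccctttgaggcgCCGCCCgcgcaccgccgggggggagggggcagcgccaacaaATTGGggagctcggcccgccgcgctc

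The stretch beside COL4A5 held CCAAT 2 times, on opposite strands, and not GGGCGG, the GC-rich motif. The farther COL4A6 stretch held the GC-rich motif once and not the other, the 211 bases before the nearer COL4A6 start, not printed because they overlap those of COL4A5, held CCAAT 3 times and not the GC-rich motif, and that of COL4A1 held each of them once. None of them held TATAAA. Of RefSeq promoter windows of the length of the first stretch, 32.0% hold CCAAT, of the length of the second 41.7% hold the GC-rich motif, and of 211 bases 28.9% hold the first motif. For the length of the third the shares are 18.1% and 31.3%. Over the 250 bases before the start, 30.0% of the 50 starts of 39 members with an entry held the first motif, beside 32.0% of 35116 starts in all, 56.0% the GC-rich motif, beside 42.6%, and 18.0% the TATA motif, beside 10.7%. A match is only a description of the letters in these windows.

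Beyond collagen IV, COL15A1, a multiplexin of basement membrane zones, was the second member past the adjusted threshold. It had 33, 36 and 37 reads with siCTR against 81, 78 and 67 with siLSD1. Controls were nearly equal and every siLSD1 library was higher (2.70 ± 0.14 and 5.75 ± 0.69 CPM, log2 1.09 ± 0.22 SE, edgeR adjusted p = 0.0278). With each library left out in turn its log2 fold change was 1.03 to 1.19, but the edgeR adjusted p met 0.05 only without siLSD1 replicate 3 (0.0299) and was 0.0711, 0.0755 and 0.0916 without siCTR replicates 1, 2 and 3, and 0.0926 and 0.144 without siLSD1 replicates 1 and 2. The other multiplexin, COL18A1, chosen after its values were seen, had overlapping groups at 7.49 ± 1.5 and 6.99 ± 2.16 FPKM.

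COL26A1, a little-studied collagen, had 10, 5 and 6 reads with siCTR against 26, 21 and 21 with siLSD1 (log2 1.67 ± 0.39, edgeR adjusted p = 0.0564). It passed the adjusted threshold without a low-count filter (edgeR adjusted p = 0.0434) and after correcting for GC content and length (0.0117). The transmembrane collagen COL25A1 had 11, 4 and 9 reads with siCTR against 18, 13 and 32 with siLSD1 (log2 1.37 ± 0.46, edgeR adjusted p = 0.189). COL5A2 had 13, 10 and 7 reads with siCTR against 16, 17 and 22 with siLSD1 (log2 0.86 ± 0.38, edgeR adjusted p = 0.327). All 3 groups of siLSD1 values lay above the controls at few reads. COL9A2, which belongs to a cartilage collagen that coats fibrils, had 145, 126 and 143 reads with siCTR against 222, 183 and 168 with siLSD1 (log2 0.47 ± 0.16, edgeR adjusted p = 0.200, and 0.0143 after the GC content and length correction). Its groups did not overlap, while those of its partner COL9A3 did. Unadjusted edgeR p rose past 0.05 for COL25A1 without siCTR replicate 2 (0.0532) or siLSD1 replicate 3 (0.0676) and for COL9A2 without siLSD1 replicate 1 (0.0582). For COL5A2 it was 0.0761 and 0.162 without siCTR replicates 2 and 3, and 0.0796 and 0.113 without siLSD1 replicates 2 and 3. With no library left out, COL5A2 also missed the unadjusted threshold in DESeq2, and in edgeR without a low-count filter or after the GC content and length correction.

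Among the enzymes, LOXL4, a lysyl oxidase, had 37, 35 and 53 reads with siCTR against 62, 74 and 81 with siLSD1. The groups did not overlap (log2 0.79 ± 0.23, edgeR adjusted p = 0.135). P4HA1, catalytic subunit of prolyl 4-hydroxylase, had 900, 1085 and 1063 reads with siCTR against 1160, 1204 and 1350 with siLSD1 (log2 0.28 ± 0.12, edgeR adjusted p = 0.303). P4HA3, a rarer subunit of the same enzyme, had 34, 29 and 29 reads with siCTR against 54, 36 and 55 with siLSD1 (log2 0.65 ± 0.25, edgeR adjusted p = 0.266). Both subunits lay above the controls in 3 of 3 libraries, and after correcting for GC content and length P4HA1 passed the adjusted threshold (edgeR adjusted p = 0.0225). PLOD2, the lysyl hydroxylase of collagen telopeptides, was the only member lower at an unadjusted p under 0.05. It had 1012, 963 and 1046 reads with siCTR against 692, 828 and 935 with siLSD1. Replicate 3 of siLSD1 lay nearest the controls (log2 −0.30 ± 0.13, edgeR adjusted p = 0.311, and 0.0348 after the GC content and length correction). Its unadjusted edgeR p was 0.0754 and 0.0872 without siCTR replicates 1 and 3, and 0.162 and 0.0636 without siLSD1 replicates 1 and 2, and without siLSD1 replicate 1 the log2 fold change was −0.18. For P4HA1 the unadjusted edgeR p was 0.162 and 0.0734 without siCTR replicates 1 and 3, and 0.108 and 0.0852 without siLSD1 replicates 2 and 3. For P4HA3 it was 0.0543 and 0.0757 without siCTR replicates 2 and 3, and 0.0752 and 0.0681 without siLSD1 replicates 1 and 3.

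**Figure D4:**
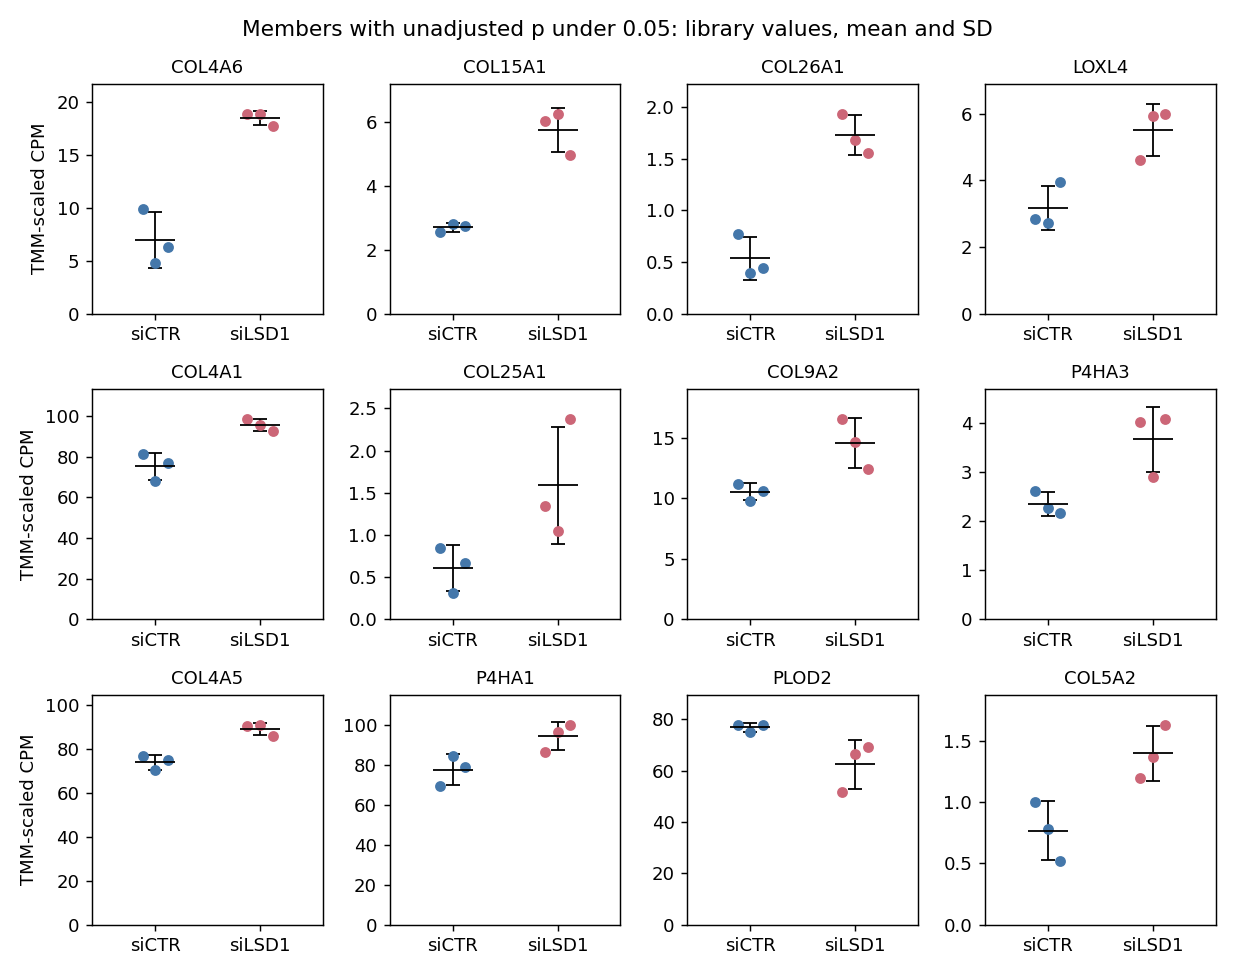
TMM-scaled CPM of the 12 members with an unadjusted p under 0.05, 1 point per library, with mean and SD (n = 3 per group). In each panel the groups do not overlap, and PLOD2 alone is lower in siLSD1.

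Most of the 10 most abundant members were not called, and their intervals give the changes that remain possible. For COL7A1 the log2 fold change was −0.19 with a 95% interval of −0.58 to 0.19, and for COL5A1 it was 0.12 (−0.21 to 0.46). The COL7A1 value was −0.02 without siCTR replicate 1 or siLSD1 replicate 3, −0.31 without siCTR replicate 2 and −0.33 without siLSD1 replicate 1. COL12A1 had 0.24 (−0.11 to 0.60), resting in part on siCTR replicate 2, which had 24.9 FPKM beside 41.2 and 41.1 in the other controls, and without which the log2 fold change was 0.05. PLOD3 had −0.15 (−0.39 to 0.10), PLOD1 0.20 (−0.05 to 0.46) and PCOLCE −0.17 (−0.44 to 0.10). Every siLSD1 library of PLOD1 in CPM lay above every siCTR library. After the GC content and length correction PLOD1 and COL4A2 passed the unadjusted but not the adjusted threshold in edgeR (unadjusted p = 0.0276 and 0.0351). SERPINH1 had 0.06 (−0.18 to 0.31), LOXL2 0.09 (−0.21 to 0.39) and COL4A2 0.13 (−0.14 to 0.40). Without siLSD1 replicate 3 PLOD3 had −0.06 and PCOLCE −0.07, without siCTR replicate 2 PLOD1 had 0.11 and COL4A2 0.06, and without siLSD1 replicate 1 COL4A2 had 0.04. After the GC content and length correction PCOLCE had −0.01, PLOD3 −0.05, COL7A1 −0.13 and COL12A1 0.15, nearer 0 than before. PLOD1 and COL4A2 then had 0.25 and 0.17, further from 0, and COL5A1, SERPINH1 and LOXL2 had 0.11, 0.07 and 0.11. COL5A1, LOXL2 and SERPINH1 each crossed 0 without a single library, COL5A1 (−0.02) and LOXL2 (−0.05) without siCTR replicate 2 and SERPINH1 (−0.0037) without siLSD1 replicate 1. Of the 24 tested members with an unadjusted p of 0.05 or more, log2 fold changes ran from −0.23 to 0.45, and in 10 the whole interval lay within 0.5 of 0.

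The 15 members below the filter were all collagen genes: COL2A1, COL3A1, COL6A2, COL6A3, COL6A6, COL8A1, COL8A2, COL9A1, COL10A1, COL11A1, COL13A1, COL14A1, COL20A1, COL24A1 and COL28A1. They had 1 to 51 reads over all 6 libraries and at most 12 in any library. In the fit without a low-count filter 2 of them were higher at an unadjusted p under 0.05, COL8A1 (edgeR adjusted p = 0.201) and COL6A3 (edgeR adjusted p = 0.387), beside 6.53% of all 15585 genes. COL6A3 had 0 reads in each siCTR library and 4, 2 and 0 in siLSD1. COL2A1, the cartilage fibril chain, and COL10A1, a mark of hypertrophic cartilage, were among them.

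Other genes of the collagen pathway were read from lists of folding partners, secretion factors, proteinases, receptors, matrix proteins and regulators, with 60 genes in the table and 40 tested. At an unadjusted p under 0.05, 7 were higher and 4 lower, and at an adjusted p under 0.05 from edgeR 4 were higher and 2 lower. These were 17.5% and 10% of the tested genes of the lists at the unadjusted threshold and 10% and 5% at the adjusted one, beside 7.48% and 6.55%, and 1.07% and 0.371%, of all tested genes. Their median log2 fold change was 0.03. CTGF, a matricellular growth factor, had 1143, 1279 and 1201 reads with siCTR against 2358, 2192 and 2268 with siLSD1. Both groups were tight and far apart (log2 0.91 ± 0.11, edgeR adjusted p = 0.00149). FN1, fibronectin, had 382, 238 and 433 reads with siCTR against 640, 609 and 794 with siLSD1, with siCTR replicate 2 lowest (log2 0.95 ± 0.18, edgeR adjusted p = 0.0216). Without that library its log2 fold change was 0.75 (edgeR adjusted p = 0.045). THBS1, thrombospondin 1, had 1770, 1579 and 1914 reads with siCTR against 2540, 2494 and 2486 with siLSD1 (log2 0.51 ± 0.11, edgeR adjusted p = 0.0341). In each of these 3 genes the groups did not overlap.

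Among genes of prolyl 3-hydroxylation, P3H2 rose and CRTAP fell. P3H2, a prolyl 3-hydroxylase known for its action on collagen IV, had 1841, 1770 and 1834 reads with siCTR against 2717, 2629 and 2748 with siLSD1 (log2 0.57 ± 0.10, edgeR adjusted p = 0.0157). CRTAP, which forms a complex with P3H1 and cyclophilin B, had 4212, 4042 and 4588 reads with siCTR against 3055, 2935 and 3208 with siLSD1 (log2 −0.48 ± 0.10, edgeR adjusted p = 0.0364). P3H1 itself had a log2 fold change of 0.02 ± 0.11, and PPIB, which encodes cyclophilin B, had 0.03. P3H4, of the same family, had −0.29 (edgeR adjusted p = 0.322). PPIB and P3H4 were chosen after their values were seen. TFG, a factor of secretory transport from the endoplasmic reticulum, had 2275, 2364 and 2550 reads with siCTR against 1614, 1486 and 1768 with siLSD1 (log2 −0.57 ± 0.10, edgeR adjusted p = 0.0188). The collagen receptor subunit ITGB1 had 6243, 6349 and 7147 reads with siCTR against 7594, 8255 and 9374 with siLSD1 (edgeR adjusted p = 0.176). ITGA2, another receptor subunit, had 385, 292 and 397 reads with siCTR against 236, 249 and 298 with siLSD1 (edgeR adjusted p = 0.182). After correcting for GC content and length both passed the adjusted threshold (edgeR adjusted p = 0.0165 and 0.0103).

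CTGF met the adjusted threshold whichever library was left out, while the other adjusted calls were lost in some of these fits, in which calls over all genes were fewer too. Log2 fold changes moved little for P3H2 (0.56 to 0.58), TFG (−0.61 to −0.53), THBS1 (0.46 to 0.56) and CRTAP (−0.51 to −0.45). That of FN1 moved more, from 0.75 to 1.11. The edgeR adjusted p of P3H2 was 0.0927 without siCTR replicate 3 and 0.133 without siLSD1 replicate 2. For TFG it was 0.0987, 0.0754 and 0.181 without siCTR replicate 3 and siLSD1 replicates 1 and 2. For FN1 it was 0.0505 and 0.0541 without siLSD1 replicates 1 and 3. THBS1 missed the threshold without any 1 library (edgeR adjusted p 0.0772, 0.0596 and 0.0987 without siCTR replicates 1, 2 and 3, and 0.0868, 0.239 and 0.0552 without the siLSD1 replicates), and CRTAP met it only without siCTR replicate 2 (0.0339), with 0.0823 and 0.175 without siCTR replicates 1 and 3, and 0.108, 0.252 and 0.0798 without the siLSD1 replicates. The collagenases and gelatinases in the table, chosen after their values were seen, had few reads, with 0 to 4 per library for MMP1, MMP2, MMP9 and MMP13, 5 to 14 for MMP14 and 13 to 27 for CTSK.

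**Figure D5:**
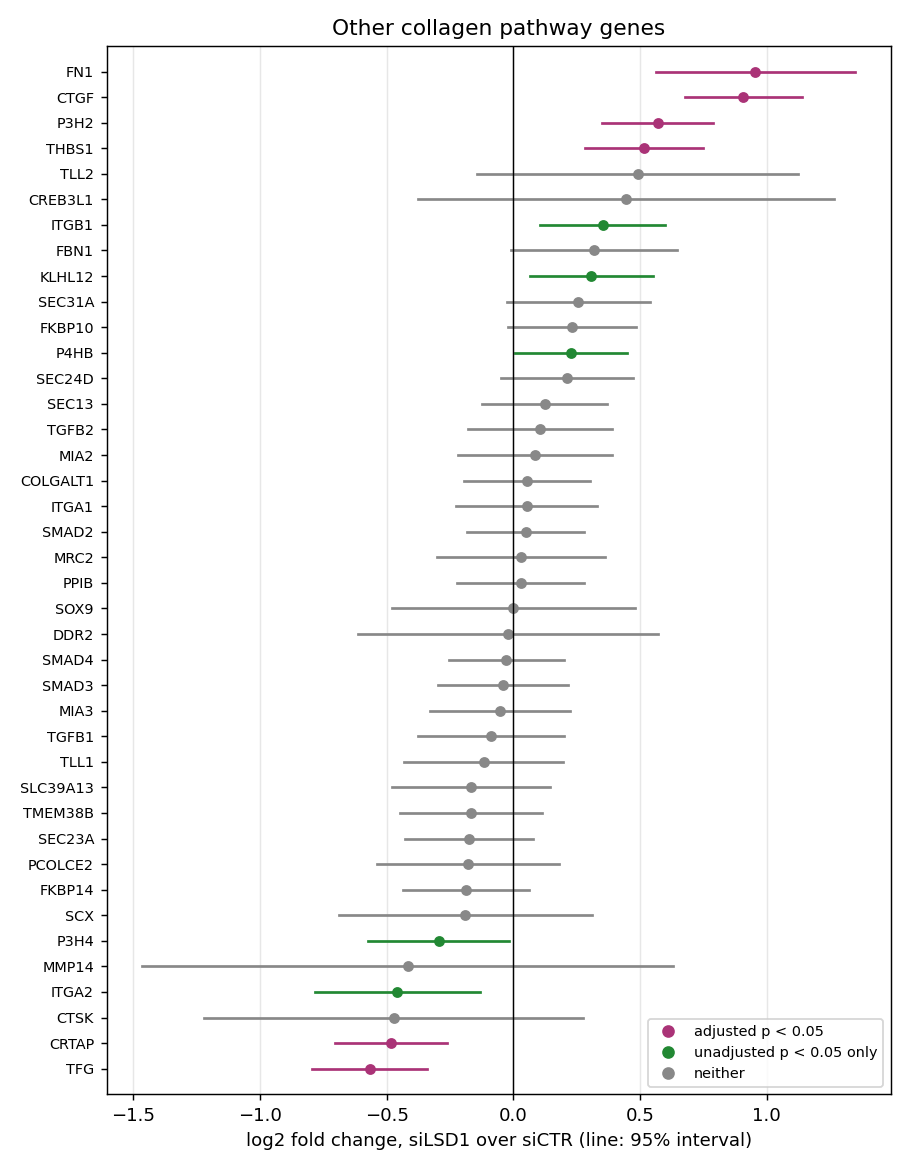
Log2 fold change of siLSD1 over siCTR for the 40 tested genes of the pathway lists, with 95% intervals from edgeR. FN1, CTGF, P3H2 and THBS1 lie above 0 and CRTAP and TFG below 0 at an adjusted p under 0.05.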

How the data were processed

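RNA was sequenced from 6 libraries of 12513511 to 13561344 reads in genes, at which the 95% interval of a tested member without a call reached a median of 0.37 to each side on the log2 scale. Per the labels and the study's methods, reads were aligned with STAR (version, genome build, annotation and counter not given in the sources used here). The deposited count columns hold whole reads per gene, and the deposited FPKM columns hold the authors' length-scaled values, used for levels only. The authors' fold changes, p-values and lists of changed genes were not used, nor were 12 further columns of per-sample values. Counts were tested with edgeR 4.0.16 in R 4.3.3 (filterByExpr, minimum count 10, TMM factors, quasi-likelihood test) over 11844 genes, with Benjamini-Hochberg adjustment. The calls were an adjusted and an unadjusted p under 0.05. DESeq2 1.42.0, limma 3.58.1, other filters and scaling, a correction for GC content and length, the replicate block, a second deposited counting of the same libraries and leaving out each library were alternatives. The fit was tested on simulated data. Members and lists were chosen with earlier results of these data known. Genes were named by rule: KDM1A, members with an unadjusted p under 0.05, the 10 members highest in FPKM, and, from the other pathway genes past that threshold, the 8 of smallest p. Promoter windows came from RefSeq, matched by symbol.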

Additional observations from a re-analysis of the deposited data

How the results depend on the processing

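The direction of the named genes held under the alternatives run, except in 3 genes with 1 library left out. Log2 fold changes ran from −0.0165 to 0.26 for COL5A1 and −0.049 to 0.191 for LOXL2, lowest without siCTR replicate 2, and from −0.00373 to 0.138 for SERPINH1, lowest without siLSD1 replicate 1. None of these 3 was called. Members higher at an adjusted p under 0.05 numbered 2 in the reported fit, 6 with the replicate block, 6 with the correction for GC content and length and 8 with both, beside 127, 489, 529 and 725 genes in all. Members lower numbered 0 except with the correction, beside 44 genes in all in the reported fit and 408 with the block. With the correction they numbered 1, alone or with the block, beside 342 and 575 genes in all. With each library left out, members higher at an adjusted p numbered 1 to 2 and at an unadjusted p 7 to 11, members lower at an unadjusted p 0 to 1 and the median log2 fold change was 0.0662 to 0.26. Over all genes, calls at an adjusted p were fewer in each of these fits, and at an unadjusted p 5.07% to 7.72% were higher and 3.79% to 7.43% lower. Other pathway genes higher at an adjusted p were 7 with the correction, 6 with the block, 4 in the reported fit and 2 to 3 with a library left out. The cause of these shifts was not tested.

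Replicate numbers were not treated as pairs in the reported fit. Deviations from the group means correlated at 0.33, 0.07 and 0.31 for the same numbers. For unlike numbers the correlations ran from −0.29 to 0.01, so each sample correlated best with its own number. The second deposited counting also set each siCTR library against the siLSD1 library of its number. No label ties a number to a culture or a day, and a pairing of the replicates remains possible. With the replicate block, COL25A1, COL26A1, COL4A1, LOXL4, ITGB1 and ITGA2 also passed the adjusted threshold (0.035, 0.00602, 0.0473, 0.0231, 0.0371 and 0.0229 from edgeR), members higher at an unadjusted p numbered 13, beside 10.3% of all genes higher and 11.2% lower, PLOD1 passed the adjusted threshold with the correction as well (0.0417 from edgeR), and calls over all genes at an adjusted p rose from 127 higher and 44 lower to 489 and 408.

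Of 450 comparisons of a named gene under an alternative, 404 kept their side of the adjusted threshold, 23 lost and 23 gained it.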

Other observations

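COL8A1, below the filter and chosen after its values were seen, had 1, 0 and 0 reads with siCTR against 2, 4 and 8 with siLSD1, and THBS2, of the matrix protein list and also chosen after its values were seen, had 1, 0 and 1 with siCTR against 8, 3 and 7 with siLSD1. Both had every siLSD1 library above every siCTR library, and in the fit without a low-count filter their edgeR adjusted p was 0.201 and 0.166.

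VWF, fixed as an endothelial marker, rose from 103, 63 and 89 reads in siCTR to 152, 161 and 155 in siLSD1 (log2 0.87 ± 0.19, edgeR adjusted p = 0.0418), while PECAM1 and TEK had 0 to 3 reads in every library. KRT17, chosen after its values were seen, had 2167, 2884 and 2455 reads with siCTR against 4867, 4119 and 4081 with siLSD1 (log2 0.79 ± 0.13, edgeR adjusted p = 0.0105). The other keratins chosen after their values were seen did not pass that threshold, with log2 fold changes of 0.21 for KRT7, −0.14 for KRT8 and −0.32 for KRT18 (edgeR adjusted p = 0.412, 0.626 and 0.268). The epithelial marker CDH1 had 95, 80 and 66 reads with siCTR against 154, 117 and 143 with siLSD1 (log2 0.77 ± 0.19, edgeR adjusted p = 0.0699), while EPCAM and CLDN4, the other tested markers of that list, had log2 fold changes of −0.06 and −0.20 (edgeR adjusted p = 0.940 and 0.558).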
